A study of Mus musculus with 34 samples.

Results

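The 7 genes described here are agouti (symbol a), Slc5a5, Slc25a34, Selenov, Gm49980, Ggcx and Lin28b. They were chosen by name from the 55385 genes of a count table of mouse brain cortex, as genes that lie outside the duplicated stretch of chromosome 16 in Dp16 mice and that shifted in carriers of the duplication. The differences between carriers and non-carriers therefore chose them and are given below as a description, with no test. Agouti, Slc5a5, Slc25a34 and Selenov were higher and the long non-coding RNA Gm49980 was lower in carriers at both treatments, with and without 5xFAD. Ggcx was higher in carriers mainly among tofacitinib-treated mice, and Lin28b was lower in sham-treated Dp16 mice and higher in tofacitinib-treated Dp16 mice than in their wild-type counterparts, so neither of these is a general marker of the duplication in these libraries.

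Each library held the poly-A RNA of the cortex of 1 mouse, and the 34 mice were all 6 months old. Dp16 mice carry an extra copy of a segment of chromosome 16 whose genes correspond to many of human chromosome 21 and are a model of Down syndrome. In 5xFAD mice, a model of Alzheimer disease, Thy1 promoter sequence drives mutant human transgenes in neurons. Mice received the JAK1/3 inhibitor tofacitinib (Tofa) at 15 mg/kg, or only its vehicle of 0.5% methylcellulose (sham), by oral gavage each day for a month. The 15 carriers were 4 tofacitinib-treated and 3 sham-treated 5xFAD-Dp16 mice and 5 tofacitinib-treated and 3 sham-treated Dp16 mice. The 19 non-carriers were 5 tofacitinib-treated and 4 sham-treated 5xFAD mice and 5 tofacitinib-treated and 5 sham-treated wild-type (WT) mice, which the labels give as C57BL/6J. The strain background of the other genotypes is not given in the sources used here. The carriers held 9 females and 6 males and the non-carriers 7 females and 12 males. Each library held between 16029841 and 21388650 counts, and 17632 genes, of which 17526 lie outside the segment, had enough counts to be tested. Levels are in CPM, counts per 1e6 of a library total that was adjusted by the trimmed mean of M-values (TMM).

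The labels of the duplication matched the libraries. Over 105 segment genes, the median ratio to the mean of the WT sham libraries lay between 1.39 and 1.52 in the 15 carriers and between 0.908 and 1.05 in the 19 non-carriers. Neuronal markers were abundant in every library, with a summed level of 7350 to 9100 CPM in carriers and 4610 to 9660 CPM in non-carriers over 7 genes. The cortex samples held different amounts of neighbouring tissue. The 6 striatal markers summed to 236 to 1120 CPM in carriers (median 476) and 349 to 1490 CPM in non-carriers (median 857). None of the 6 was called between carriers and non-carriers, but all 6 differences were negative, with a median log2 difference of -0.588. Among 5 microglial markers P2ry12, a purine receptor, was called lower, with 42.7 ± 4.06 CPM in carriers and 49.7 ± 5.13 CPM in non-carriers (log2 difference -0.21, edgeR quasi-likelihood test, adjusted p = 0.0397). Of the 5 microglial differences 1 was above 0, with a median log2 difference of -0.084. The list summed to 191 to 273 CPM in carriers and 200 to 305 CPM in non-carriers. Among 5 endothelial markers Cdh5, VE-cadherin, was called lower, with 20.9 ± 2.92 CPM in carriers and 25.2 ± 4.56 CPM in non-carriers (log2 difference -0.27, adjusted p = 0.0491). Of the 5 endothelial differences 2 were above 0, with a median log2 difference of -0.02. That list summed to 213 to 270 CPM in carriers and 201 to 302 CPM in non-carriers. Each call is of 1 gene and not of its list, and 1.76% of the tested genes outside the segment were called. The part of microglia and endothelial cells in the differences below was not tested. Choroid plexus markers ran from 7.5 to 1000 CPM in carriers and from 8.88 to 1530 CPM in non-carriers over 8 genes. In bulk tissue, fewer cells of a type and less RNA per cell cannot be told apart.

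The 7 genes belong to unrelated systems. Agouti is a secreted antagonist of melanocortin receptors, made in the skin, where it switches hair pigment to yellow. Non-agouti strains such as C57BL/6J carry a recessive allele that silences it, and ectopic agouti, as in yellow mice, acts on melanocortin receptors of the hypothalamus. Slc5a5 is the sodium-iodide symporter that concentrates iodide in the thyroid, Slc25a34 an orphan member of the mitochondrial carrier family and Selenov a selenoprotein known mainly from testis. Ggcx is the gamma-glutamyl carboxylase, which uses vitamin K to activate clotting factors and Gas6. Lin28b is an RNA-binding protein that blocks the maturation of let-7 microRNAs in embryonic cells. Gm49980 is annotated as a long non-coding RNA, and no function is given for it here.

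Agouti was the gene most nearly confined to carriers, and its counts are those assigned to a protein-coding gene of 817 exonic bases. ENSMUSG00000027596.10 spans 259.6 kb of chromosome 2 (GRCm38, 154791402 to 155051012, plus strand), with long introns that hold other genes. Its annotated transcript has 4 exons and encodes 131 residues in 396 bases. The last 41 codons with the stop, at chr2:155050673-155050798 on the plus strand, are shown because they encode the cysteine-rich end of the protein, which binds melanocortin receptors. They hold 10 of the 11 cysteine codons, which are in capitals, and are taken from GENCODE M21 on GRCm38.
Agouti, last codons: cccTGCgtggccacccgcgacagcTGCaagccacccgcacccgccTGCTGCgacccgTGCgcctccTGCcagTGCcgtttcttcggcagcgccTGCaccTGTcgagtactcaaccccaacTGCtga

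Each of the 15 carriers held agouti counts. The 4 tofacitinib-treated 5xFAD-Dp16 mice had 23, 27, 37 and 31 counts, against 3, 0, 0, 0 and 1 in the 5 tofacitinib-treated 5xFAD mice. The 3 sham-treated 5xFAD-Dp16 mice had 21, 17 and 29 counts, against 0 in each of the 4 sham-treated 5xFAD mice. Among mice without 5xFAD, the 5 tofacitinib-treated Dp16 mice had 32, 36, 26, 15 and 17 counts, against 4, 0, 0, 0 and 0 in the 5 tofacitinib-treated WT mice. The 3 sham-treated Dp16 mice had 35, 26 and 33 counts, against 0 in each of the 5 sham-treated WT mice. The lowest carrier thus stood at 15 counts and the highest non-carrier at 4, and the groups did not overlap in counts or in CPM. All 8 counts in non-carriers came from 3 tofacitinib-treated mice. The share of genes that separate groups of this size gives the background. Among genes outside the segment 1.01% lay wholly above in 5xFAD-Dp16 against 5xFAD tofacitinib mice, 4.96% in the same genotypes under sham, 0.571% in Dp16 against WT tofacitinib mice and 2.48% in the same genotypes under sham.

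Pooled over libraries, agouti reached 1.46 CPM in carriers (405 counts) and 0.0232 CPM in non-carriers (8 counts), a ratio of 62.7 with a 95% interval of 31.5 to 146 that covers counting error only. In the sham pairs the non-carriers held no count, so only a lower bound was available, set against a floor of 3 counts over the group. Agouti was at least 49.7-fold higher in Dp16 than in WT sham mice and at least 27.1-fold higher in 5xFAD-Dp16 than in 5xFAD sham mice. In the tofacitinib pairs the ratio was 37.1 (14.1 to 138) for 5xFAD-Dp16 over 5xFAD and 32.3 (12.3 to 120) for Dp16 over WT. These ratios rest on few non-carrier counts. Only non-carrier libraries that held agouti counts were left out here, and no carrier was. The ratios below could therefore only rise, and they show this dependence without testing the difference. Without WT tofacitinib replicate 1, which held 4 of the 8, the ratio over all mice was 119 (46.0 to 438), and Dp16 tofacitinib mice were at least 33.8-fold higher than the remaining WT tofacitinib mice, against the same floor. Without 5xFAD tofacitinib replicate 1, which held 3 counts, the ratio over all mice was 94.4 (40.1 to 292) and that of 5xFAD-Dp16 over 5xFAD tofacitinib mice 118 (20.7 to 4690). Among the 17526 tested genes outside the segment, agouti was the single one (0.00571%) whose 15 carriers and 19 non-carriers did not overlap. Among the 106 tested segment genes, the same held for 15 (14.2%). Agouti had enough counts to be tested only through the carriers, and it was chosen for this difference. Its place among the tested genes describes that choice and is no test.

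**Figure D1:**
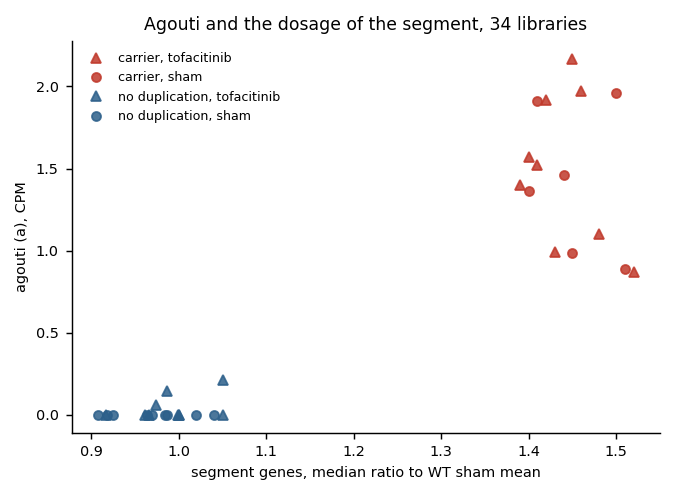
Agouti level (CPM, vertical) against the median ratio of segment genes to their mean in WT sham libraries (horizontal), 1 point per library for 15 carriers (red) and 19 non-carriers (blue), with triangles for tofacitinib and circles for sham. The carriers lie between 0.867 and 2.17 CPM and the non-carriers between 0 and 0.214 CPM, with no library between the clusters.

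Within carriers, the agouti level ran from 0.867 to 2.17 CPM with a median of 1.46 CPM, a coefficient of variation of 29.8%. With 15 to 37 counts per library, counting error alone at their mean count would give 19.2%. Sham-treated Dp16 mice averaged 1.78 ± 0.274 CPM (SD, n = 3) and sham-treated 5xFAD-Dp16 mice 1.08 ± 0.25 CPM (SD, n = 3), with the tofacitinib-treated 5xFAD-Dp16 mice at 1.51 ± 0.36 CPM (SD, n = 4) and the tofacitinib-treated Dp16 mice at 1.49 ± 0.565 CPM (SD, n = 5) between them. None of the 3 steps in that order of carrier groups exceeded the larger SD of the neighbours. Per kilobase of exon, agouti reached 1.81 ± 0.542 RPKM in the 15 carriers, a level near that of Gm49980 and Selenov.

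The genes that share the agouti locus were examined next. Raly, which encodes an RNA-binding protein and overlaps the start of the agouti gene on the same strand, averaged 107 ± 13.6 CPM in carriers and 107 ± 11.9 CPM in non-carriers (SD, n = 15 and 19), a log2 difference of -0.02 (edgeR quasi-likelihood test, adjusted p = 0.934). Eif2s2, a subunit of translation initiation factor eIF2 on the opposite strand within the span, averaged 97.7 ± 13.7 CPM in carriers and 97.5 ± 24.3 CPM in non-carriers. Gm14226, which lies inside the span on the same strand, had 8 counts in all 34 libraries. Ahcy, the next tested gene downstream, which hydrolyses S-adenosylhomocysteine, averaged 24.0 ± 3.21 CPM in carriers and 26.5 ± 2.98 CPM in non-carriers (adjusted p = 0.373). Of the 21 tested genes other than agouti within 500 kb of the gene, 0 were called.

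Genes of melanocortin signalling and pigment other than agouti were measured in the cortex, and 0 of those tested were called. This list was chosen with earlier results of these data known, as were the other lists below, and 12 of its 17 genes could be tested, 5 of them with a difference above 0. Their median log2 difference was -0.008, against 0.004 over all 17632 genes. Since 1.76% of the tested genes outside the segment were called, 0 calls in a list this short is near the background and is no result about the list, here and in the lists and neighbourhoods below. Atrn, the attractin receptor that agouti needs, averaged 149 ± 20.2 CPM in carriers and 148 ± 23.6 CPM in non-carriers. Mgrn1, the ubiquitin ligase of the same pathway, averaged 169 ± 11.6 CPM in carriers and 174 ± 20.5 CPM in non-carriers. Mc4r, the melanocortin receptor of appetite control, stood at 1.2 ± 0.483 CPM in carriers and 1.35 ± 0.761 CPM in non-carriers, and Mc1r, the receptor of pigment cells, had counts in 6 of 15 carriers and 3 of 19 non-carriers.

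The 6 melanocyte genes summed to 6.67 to 11.4 CPM in carriers and 5.72 to 11.4 CPM in non-carriers, and Mitf, which other cells express as well, averaged 7.05 ± 1.09 CPM in carriers and 7.64 ± 1.42 CPM in non-carriers. Tyr, the tyrosinase of pigment synthesis, was too low to be tested, with counts in 11 of 15 carriers and 4 of 19 non-carriers. Tyrp1 had counts in 1 of 15 carriers and 10 of 19 non-carriers. Hprt, the purine salvage enzyme, averaged 144 ± 22 CPM in carriers and 132 ± 36 CPM in non-carriers (log2 difference 0.13, adjusted p = 0.592). Coat colour genes and Hprt are used as tags in mouse chromosome engineering. The labels do not say which tags the Dp16 chromosome carries, and a part of such a tag in the agouti counts was not tested.

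Of the 6 other genes, 5 have an annotated promoter near which sequence could be read, and agouti has one as well, so that 6 of the 7 matched. Promoters of the 3 genes other than agouti that were higher in every pair of groups are shown so that their letters can be compared. The genes were chosen for that shift, so it is no evidence of shared behaviour. They come from RefSeq on GRCm38.p6 and run from 250 bases before to 50 bases after the start. All 3 lie on the minus strand, and each is printed 5′ to 3′ in the direction of transcription, with matches to GGGCGG (the GC box) and CCAAT (the CCAAT box) on either strand in capitals. The windows are chr8:70892708-70893007 for Slc5a5, chr4:141623785-141624084 for Slc25a34 and chr7:28291137-28291436 for Selenov.
Slc5a5 promoter: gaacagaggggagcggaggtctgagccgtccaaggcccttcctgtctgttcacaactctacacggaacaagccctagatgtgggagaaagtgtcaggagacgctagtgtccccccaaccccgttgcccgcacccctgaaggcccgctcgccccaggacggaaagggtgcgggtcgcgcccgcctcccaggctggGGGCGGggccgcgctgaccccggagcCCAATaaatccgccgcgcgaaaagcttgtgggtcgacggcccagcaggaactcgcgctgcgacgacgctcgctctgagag
Slc25a34 promoter: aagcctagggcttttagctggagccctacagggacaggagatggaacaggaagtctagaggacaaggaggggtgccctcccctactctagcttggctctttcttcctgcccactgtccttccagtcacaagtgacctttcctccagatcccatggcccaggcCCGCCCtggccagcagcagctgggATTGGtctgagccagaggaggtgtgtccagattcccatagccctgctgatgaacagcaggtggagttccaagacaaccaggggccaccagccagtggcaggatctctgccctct
Selenov promoter: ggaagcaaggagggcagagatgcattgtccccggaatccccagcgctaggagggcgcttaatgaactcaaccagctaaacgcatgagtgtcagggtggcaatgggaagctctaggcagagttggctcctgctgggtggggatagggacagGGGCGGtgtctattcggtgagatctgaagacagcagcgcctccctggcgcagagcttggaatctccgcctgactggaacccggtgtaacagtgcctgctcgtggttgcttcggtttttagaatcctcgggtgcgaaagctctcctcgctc

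The 3 windows shared a GC box, on the same strand as the gene in Slc5a5 and Selenov and on the opposite strand in Slc25a34. A GC box on either strand stood in 35.7% of the 32851 RefSeq promoters of the same length and a CCAAT box in 37.4%. The Ggcx window held a GC box too, while those of agouti and Lin28b held none. The other motifs were searched on both strands too. TATAAA, the TATA box, stood in 13.6% of all promoters and the cyclic AMP element TGACGTCA in 1.79%, and none of the 6 windows held either. CACGTG, the E-box, stood in 7.15% of promoters and in the Lin28b window. The 6 windows differed in base composition, with a GC content of 67% in Slc5a5, 60.3% in Ggcx, 59% in Slc25a34, 58.3% in Selenov, 50.3% in agouti and 39% in Lin28b, against a median of 52.7%. These matches describe the letters of the windows and no binding was measured.

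Slc5a5 (ENSMUSG00000000792.2, chromosome 8, 70882889 to 70892757, minus strand) was the most abundant of the 7 genes per kilobase, at 11.7 ± 1.35 RPKM in carriers and 7.96 ± 1.17 RPKM in non-carriers. Its level was 29.0, 36.0, 36.6 and 36.7 CPM in tofacitinib-treated 5xFAD-Dp16 mice, against 24.4, 26.7, 25.9, 29.2 and 19.5 CPM in tofacitinib-treated 5xFAD mice. It was 35.4, 32.8 and 33.9 CPM in sham-treated 5xFAD-Dp16 mice, against 18.7, 17, 21.7 and 22.6 CPM in sham-treated 5xFAD mice. All carriers lay above all non-carriers in the sham pair, while in the tofacitinib pair 1 carrier fell just under the highest non-carrier. The tofacitinib-treated Dp16 mice had 31.5, 29.7, 34.5, 27.7 and 35.8 CPM, against 21.5, 24.6, 22.1, 24.0 and 27.1 CPM in tofacitinib-treated WT mice. The sham-treated Dp16 mice had 35.5, 41.8 and 35.8 CPM, against 22.0, 22.4, 26.6, 22.0 and 24.9 CPM in sham-treated WT mice. Neither of these pairs overlapped. Outside the segment 4.96%, 0.571% and 2.48% of tested genes lay wholly above in the pairs without overlap, in the order given.

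Over all mice, Slc5a5 averaged 34.2 ± 3.58 CPM in carriers and 23.3 ± 3.09 CPM in non-carriers (SD, n = 15 and 19), a fitted log2 difference of 0.59 with an SE of 0.06. Only 2 carriers and 1 non-carrier lay in the range where both groups occurred, between 27.7 and 29.2 CPM. The order of the 8 groups put the 4 carrier groups first, led by sham-treated Dp16 mice at 37.7 ± 3.57 CPM, and the step of 6.71 CPM from the lowest carrier group to the highest non-carrier group exceeded the larger SD of the neighbours. Sham-treated 5xFAD mice were lowest at 20 ± 2.62 CPM. The choroid plexus, where the symporter has been described, gave the marker sums above, from 7.5 to 1000 CPM in carriers and from 8.88 to 1530 CPM in non-carriers, while Slc5a5 stayed between 27.7 and 41.8 CPM in the carriers and between 17 and 29.2 CPM in the non-carriers. The part of choroid plexus tissue in the Slc5a5 level was not tested.

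Of 26 listed genes of iodide handling and thyroid hormone action, 20 were tested besides Slc5a5 and 0 were called, 14 of them with a difference above 0 and a median log2 difference of 0.057. Dio2, the deiodinase that activates thyroid hormone in glia, averaged 136 ± 18 CPM in carriers and 120 ± 22.2 CPM in non-carriers (log2 difference 0.19, adjusted p = 0.246). Thra, the main thyroid hormone receptor of brain, averaged 972 ± 67.3 CPM in carriers and 1020 ± 110 CPM in non-carriers. The neighbour Ccdc124 had a log2 difference of -0.01 (adjusted p = 0.944), and 0 of 37 tested genes within 500 kb were called.

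Slc25a34 (ENSMUSG00000040740.7, chromosome 4, 141618824 to 141623821, minus strand) showed a like difference with a wider spread. It stood at 12.7, 16.5, 17.6 and 19.1 CPM in tofacitinib-treated 5xFAD-Dp16 mice, against 9.27, 11.4, 8.3, 9.28 and 8.69 CPM in tofacitinib-treated 5xFAD mice. Sham-treated 5xFAD-Dp16 mice had 14.6, 12.5 and 12.4 CPM, against 8.68, 8.63, 7.49 and 9.34 CPM in sham-treated 5xFAD mice. These pairs did not overlap. Tofacitinib-treated Dp16 mice had 13.0, 18.2, 16.9, 15.8 and 12.9 CPM, against 12.4, 8.02, 14.4, 7.73 and 8.26 CPM in tofacitinib-treated WT mice, where 1 WT library at 14.4 CPM reached into the carrier range. Sham-treated Dp16 mice had 13.3, 15.3 and 17.8 CPM, against 8.37, 10, 7.14, 6.42 and 10.8 CPM in sham-treated WT mice, again without overlap. Outside the segment 1.01%, 4.96% and 2.48% of tested genes lay wholly above in the pairs without overlap, in the order given.

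Over all mice, Slc25a34 averaged 15.2 ± 2.36 CPM in carriers and 9.19 ± 1.92 CPM in non-carriers (SD, n = 15 and 19), a log2 difference of 0.71 with an SE of 0.09. The highest non-carrier, a WT library at 14.4 CPM, stood above 6 of the 15 carriers. The rest of the mitochondrial carrier family was described in the same way. Of 51 listed members 45 were tested besides Slc25a34, 25 of them above 0, with a median log2 difference of 0.007 and 0 called. A close relative, Slc25a35, averaged 5.25 ± 0.863 CPM in carriers and 4.6 ± 1.3 CPM in non-carriers (log2 difference 0.23, adjusted p = 0.409). The abundant adenine nucleotide carrier Slc25a4 averaged 858 ± 64.2 CPM in carriers and 841 ± 79 CPM in non-carriers. On the chromosome, Plekhm2, 1913 bases from Slc25a34, averaged 150 ± 14.4 CPM in carriers and 157 ± 21.7 CPM in non-carriers, and 0 of 23 tested genes within 500 kb were called.

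Selenov (ENSMUSG00000046750.17, chromosome 7, 28284652 to 28291186, minus strand) encodes a protein with selenocysteine, which a TGA codon specifies. The annotated coding sequence of 328 codons has a single TGA in frame, at codon 255, and the stretch around it is shown in the direction of transcription, from GENCODE M21 on GRCm38, with that codon in capitals.
Selenov recoded codon with 4 codons on each side: tactgtggcctcTGAagctatggcctt

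Selenov was low in all cortex libraries and several times higher in carriers. It had 2.3, 2.49, 2.39 and 1.77 CPM in tofacitinib-treated 5xFAD-Dp16 mice, against 0.78, 1.58, 0.298, 1.55 and 0.768 CPM in tofacitinib-treated 5xFAD mice. Sham-treated 5xFAD-Dp16 mice had 3.06, 1.05 and 2.07 CPM, against 0.419, 0.795, 0.587 and 0.944 CPM in sham-treated 5xFAD mice. Neither pair overlapped, though 1 sham-treated 5xFAD-Dp16 library came close to the non-carriers. Tofacitinib-treated Dp16 mice had 4.32, 3.85, 4.57, 2.6 and 2.22 CPM, against 1.71, 0.308, 0.222, 0.512 and 0.612 CPM in tofacitinib-treated WT mice. Sham-treated Dp16 mice had 2.3, 1.86 and 2.84 CPM, against 0.416, 0.827, 0.869, 0.3 and 1.03 CPM in sham-treated WT mice. These pairs did not overlap either, and the 3 highest libraries of all were the 3 female tofacitinib-treated Dp16 mice. Outside the segment 1.01%, 4.96%, 0.571% and 2.48% of tested genes lay wholly above in the same pairs, in the order given.

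Over all mice, Selenov averaged 2.65 ± 0.962 CPM in carriers and 0.764 ± 0.446 CPM in non-carriers (SD, n = 15 and 19), a log2 difference of 1.65 with an SE of 0.24. The libraries held 20 to 78 Selenov counts in carriers and 4 to 35 in non-carriers. Only 1 carrier and 3 non-carriers lay in the shared range from 1.05 to 1.71 CPM. Selenov was the member with the largest relative difference after agouti. Among 25 other selenoproteins and factors of selenocysteine insertion tested, 15 were above 0, the median log2 difference was 0.024 and 0 were called. Selenow, a small selenoprotein abundant in brain, averaged 1140 ± 216 CPM in carriers and 1120 ± 308 CPM in non-carriers. Txnrd1, a cytosolic thioredoxin reductase, averaged 52.4 ± 4.69 CPM in carriers and 57.3 ± 4.69 CPM in non-carriers (log2 difference -0.15, adjusted p = 0.102), and Eefsec, the selenocysteine elongation factor, averaged 14.9 ± 2.02 CPM in carriers and 15.8 ± 1.75 CPM in non-carriers.

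The region around Selenov was the one place where neighbours of a member were called, and they went the other way. Of 36 tested genes within 500 kb 2 were called, both lower in carriers. Fbl, the methyltransferase fibrillarin of the nucleolus, averaged 23.7 ± 2.3 CPM in carriers and 29.5 ± 2.42 CPM in non-carriers, a log2 difference of -0.31 (SE 0.05, edgeR adjusted p = 0.00029). Sirt2, a deacetylase abundant in oligodendrocytes, averaged 147 ± 11.2 CPM in carriers and 168 ± 15.1 CPM in non-carriers, a log2 difference of -0.19 (SE 0.05, adjusted p = 0.0247). Oligodendrocyte markers moved the same way without a call, with 1 of 5 above 0 and a median log2 difference of -0.162, and their summed level ran from 5210 to 9320 CPM in carriers and 5380 to 13300 CPM in non-carriers. Their part in the Sirt2 difference was not tested. The genes next to Selenov, Eid2b and the Notch ligand Dll3, had log2 differences of 0.13 (adjusted p = 0.477) and 0.37 (adjusted p = 0.406). Over the 7 loci together, 144 tested neighbours gave these 2 calls, against 1.76% of the tested genes outside the segment that were called.

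**Figure D2:**
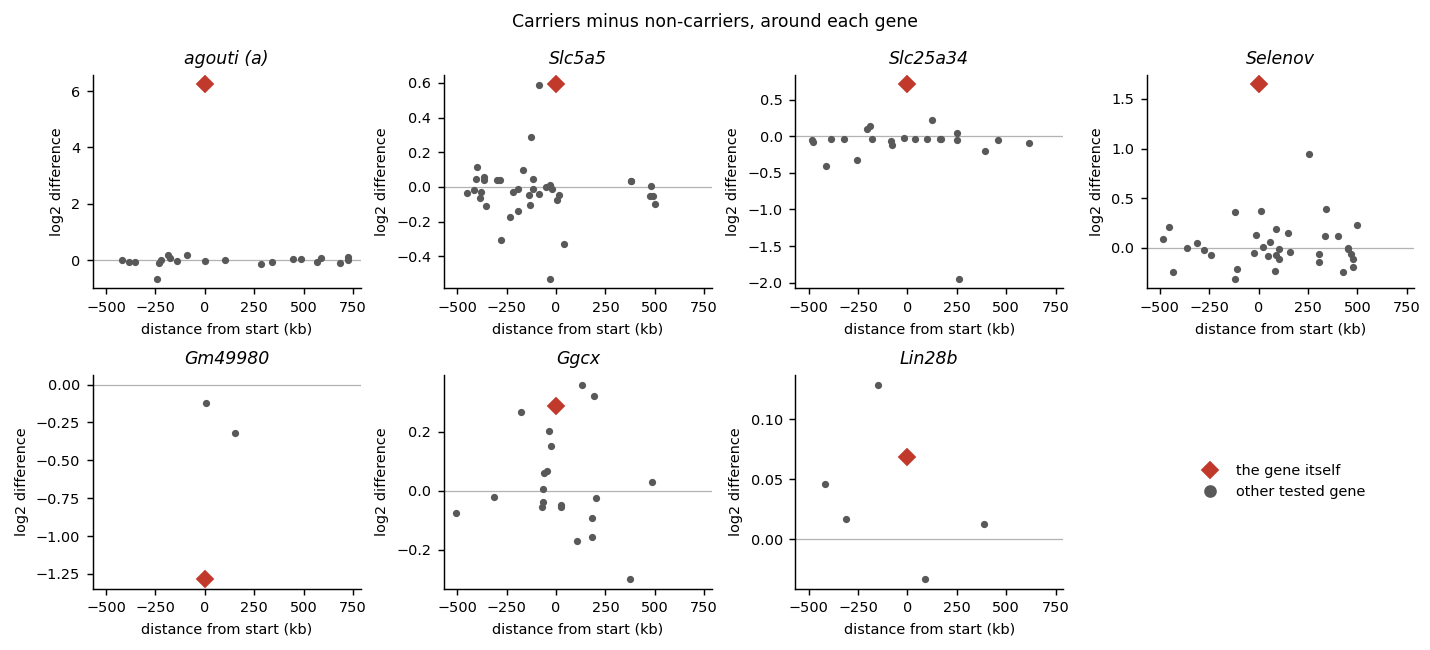
Log2 difference of carriers minus non-carriers for each gene (red diamond) and for the other tested genes within 500 kb of its ends (grey), against the distance between gene starts in kb, with a vertical scale of its own in each panel. Agouti (6.24, a fitted value that depends on the prior count since sham non-carriers held no count), Slc25a34 (0.71), Selenov (1.65) and Gm49980 (-1.28) lie beyond all neighbours in their direction, Slc5a5 (0.59) is level with its highest neighbour, and Ggcx (0.29) and Lin28b (0.07) lie within the range of theirs.

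Gm49980 (ENSMUSG00000117465.1, chromosome 18, 30267249 to 30272133, plus strand) was the one member that was lower in carriers. It had 3.79, 2.54, 2.98 and 1.97 CPM in tofacitinib-treated 5xFAD-Dp16 mice, against 5.27, 5.34, 3.18, 6.08 and 4.9 CPM in tofacitinib-treated 5xFAD mice, where the groups overlapped by 1 library each. Sham-treated 5xFAD-Dp16 mice had 2.54, 1.05 and 2.82 CPM, against 6.77, 4.54, 6.02 and 4.47 CPM in sham-treated 5xFAD mice, with no overlap. Tofacitinib-treated Dp16 mice had 3.36, 2.59, 2.87, 2.54 and 2.86 CPM, against 10, 5.24, 6.17, 7.11 and 4.53 CPM in tofacitinib-treated WT mice. Sham-treated Dp16 mice had 2.35, 1.01 and 2.14 CPM, against 7.01, 4.83, 6.58, 7.08 and 3.57 CPM in sham-treated WT mice. Both Dp16 groups lay wholly below their WT groups. Among genes outside the segment 1.57% lay wholly below in 5xFAD-Dp16 against 5xFAD tofacitinib mice, 4.66% in the same genotypes under sham, 0.576% in Dp16 against WT tofacitinib mice and 1.83% in the same genotypes under sham.

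Over all mice, Gm49980 averaged 2.49 ± 0.744 CPM in carriers and 5.72 ± 1.56 CPM in non-carriers (SD, n = 15 and 19), a log2 difference of -1.28 with an SE of 0.15. Just 2 libraries of each kind lay in the shared range from 3.18 to 3.79 CPM. Gm49980 ends 614 bases before the start of Pik3c3, on the same strand. Pik3c3, the class III phosphatidylinositol 3-kinase of autophagy, averaged 37.3 ± 2.57 CPM in carriers and 40.4 ± 3.48 CPM in non-carriers (log2 difference -0.12, adjusted p = 0.199). The other direction held no tested gene within 500 kb, since BC051408, the nearest, lies 1540402 bases away. Whether the counting used strand is not given in the sources used here, which bears on lncRNAs and overlapping genes.

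Ggcx (ENSMUSG00000053460.8, chromosome 6, 72414308 to 72430712, plus strand) did not separate carriers from non-carriers. Tofacitinib-treated 5xFAD-Dp16 mice had 9.82, 8.67, 7.44 and 7.27 CPM, against 6.88, 6.38, 5.82, 6.03 and 6.68 CPM in tofacitinib-treated 5xFAD mice. Tofacitinib-treated Dp16 mice had 7.5, 9.93, 7.85, 8.73 and 8.01 CPM, against 4.81, 4.57, 4.0, 6.03 and 5.57 CPM in tofacitinib-treated WT mice. The tofacitinib pairs thus did not overlap. Outside the segment 1.01% and 0.571% of tested genes lay wholly above in these pairs, in the order given. Sham-treated 5xFAD-Dp16 mice had 8.33, 8.12 and 9.36 CPM, against 8.26, 8.4, 7.29 and 7.6 CPM in sham-treated 5xFAD mice. Sham-treated Dp16 mice had 6.84, 5.74 and 5.39 CPM, against 7.07, 6.49, 6.58, 5.7 and 4.81 CPM in sham-treated WT mice. Both sham pairs overlapped.

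Over all mice, Ggcx averaged 7.93 ± 1.32 CPM in carriers and 6.26 ± 1.2 CPM in non-carriers (SD, n = 15 and 19), a log2 difference of 0.29 with an SE of 0.07, and 10 carriers and 15 non-carriers lay in the shared range. The vitamin K cycle and the proteins it modifies gave 0 calls among 19 tested genes besides Ggcx, 12 of them above 0, with a median log2 difference of 0.045. Its neighbours Vamp8, a vesicle fusion protein, and Mat2a, which makes S-adenosylmethionine, had log2 differences of 0.15 (adjusted p = 0.663) and -0.05 (adjusted p = 0.799).

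Lin28b (ENSMUSG00000063804.8, chromosome 10, 45376620 to 45486395, minus strand) was the lowest of the 7 per kilobase in carriers, at 0.214 ± 0.0783 RPKM. In non-carriers it stood at 0.205 ± 0.0917 RPKM, above agouti at 0.0266 ± 0.07 RPKM. Lin28b had 5 to 33 counts per library. Tofacitinib-treated Dp16 mice had 1.26, 1.56, 1.46, 1.85 and 1.93 CPM, against 0.427, 0.37, 0.278, 1.08 and 0.795 CPM in tofacitinib-treated WT mice, so all Dp16 libraries lay above. Sham-treated Dp16 mice had 1.18, 0.844 and 0.869 CPM, against 1.66, 1.72, 1.74, 1.8 and 1.73 CPM in sham-treated WT mice, so all Dp16 libraries lay below. Outside the segment 0.571% of tested genes lay wholly above in the tofacitinib pair and 1.83% wholly below in the sham pair. With 5xFAD the groups overlapped at both treatments. Tofacitinib-treated 5xFAD-Dp16 mice averaged 1.08 ± 0.2 CPM (SD, n = 4) and tofacitinib-treated 5xFAD mice 1.02 ± 0.373 CPM (SD, n = 5). Sham-treated 5xFAD-Dp16 mice averaged 0.675 ± 0.276 CPM (SD, n = 3) and sham-treated 5xFAD mice 1.07 ± 0.19 CPM (SD, n = 4).

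The sham-treated WT group was the highest of the 8 for Lin28b, at 1.73 ± 0.0496 CPM (SD, n = 5), and the tofacitinib-treated WT group the lowest, at 0.59 ± 0.337 CPM (SD, n = 5). The 5 sham-treated WT libraries held 27 to 32 counts each, for which counting error alone gives an SD of 0.321 CPM, above the SD found. Averaged over all mice, Lin28b stood at 1.15 ± 0.424 CPM in carriers and 1.11 ± 0.497 CPM in non-carriers, a log2 difference of 0.07 with an SE of 0.18. In the let-7 pathway 0 of 15 other tested genes were called, and Dicer1, which cuts microRNA precursors, averaged 28.1 ± 4.95 CPM in carriers and 28.8 ± 4.46 CPM in non-carriers. Dis3l2, the exonuclease that degrades let-7 precursors marked through Lin28, averaged 20 ± 1.94 CPM in carriers and 22.3 ± 3.15 CPM in non-carriers (log2 difference -0.15, adjusted p = 0.277).

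**Figure D3:**
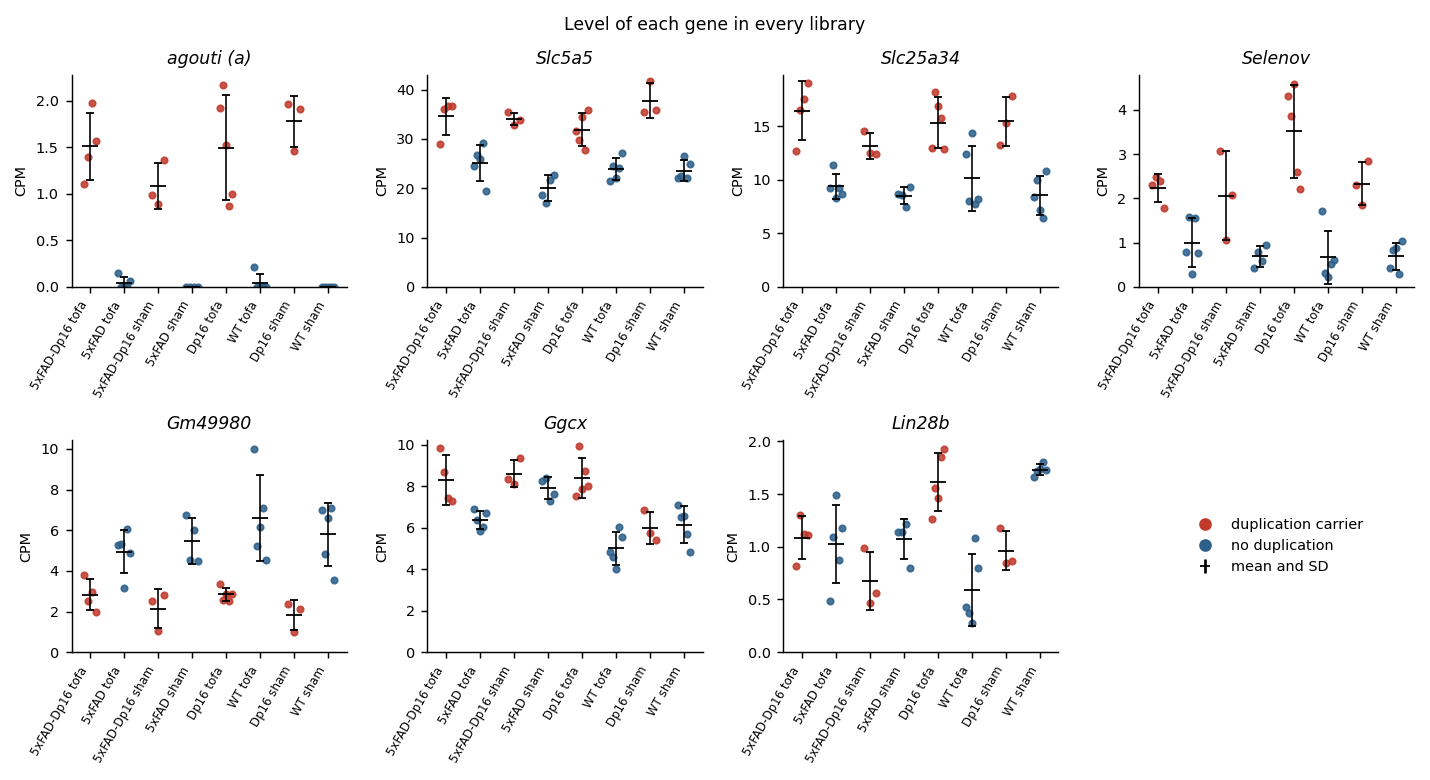
Level of each of the 7 genes in CPM (vertical, from 0) in the 8 groups, 1 point per library, red for carriers and blue for non-carriers, with the group mean and SD in black; tofa stands for tofacitinib. Agouti separates all carriers from all non-carriers (0.867 against 0.214 CPM at the nearest). Slc5a5, Selenov and Gm49980 do so nearly, while Ggcx and Lin28b do not. For Slc25a34 the highest non-carrier stands above 6 of the 15 carriers.

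The same differences, fitted over all genes, place the members among the rest of the transcriptome. Outside the segment 308 of 17526 tested genes (1.76%) passed an adjusted p under 0.05 between carriers and non-carriers, 136 higher (0.776%) and 172 lower (0.981%), and 6 of the 7 members were among them, all but Lin28b. Ggcx left that count without the low-count filter, without sham-treated Dp16 replicate 1 and without sham-treated 5xFAD-Dp16 replicate 4. Since the members were chosen on these differences, that count says how they were chosen and no more. Ordered by p, agouti was at rank 1, Slc5a5 at 2, Gm49980 at 3, Slc25a34 at 6 and Selenov at 8 of 17526, while Ggcx was at 185 and Lin28b at 13407. Luzp2, Cort and Cbs, at ranks 4, 5 and 7, were not among the 7.

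The differences within the 4 pairs of groups are part of what chose the members, so their counts are a description as well and no replication. Between Dp16 and WT sham mice 11 genes outside the segment passed (0.0628%), among them agouti, Slc5a5, Slc25a34 and Gm49980. Between Dp16 and WT tofacitinib mice 13 passed (0.0742%), among them agouti, Selenov, Ggcx, Lin28b and Gm49980. Between 5xFAD-Dp16 and 5xFAD sham mice 2 passed (0.0114%), which were agouti and Slc5a5. Between 5xFAD-Dp16 and 5xFAD tofacitinib mice 15 passed (0.0856%), among them agouti and Slc25a34.

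Differences with the drug, the 5xFAD transgenes or sex were not used to choose these genes. They were tested over all genes in the same fit of all 34 libraries, which shares its estimate of the spread with the carrier contrast. Tofacitinib against sham, averaged over genotypes, gave 0 called genes (0%), with 592 of 17632 (3.36%) at an unadjusted p under 0.05, and DESeq2 called 1. No member was among the called genes. Apart from agouti, whose fitted value rests on groups with no counts, the log2 differences of the members lay between -0.07 and 0.28, all with an adjusted p of at least 0.935. The largest were those of Selenov at 0.28, with 1.83 ± 1.34 CPM in tofacitinib-treated and 1.29 ± 0.9 CPM in sham-treated mice, Gm49980 at 0.27 and Slc25a34 at 0.18. Without WT tofacitinib replicate 1 they were 0.12 for Selenov, 0.22 for Gm49980 and 0.15 for Slc25a34, each with an adjusted p of 0.997. In carriers, agouti averaged 1.5 ± 0.457 CPM under tofacitinib and 1.43 ± 0.448 CPM under sham (SD, n = 9 and 6).

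5xFAD against no 5xFAD called 74 genes (0.42%), 34 of them higher (0.193%), and Ggcx was one of these. Ggcx averaged 7.65 ± 1.15 CPM in the 16 mice with 5xFAD and 6.42 ± 1.56 CPM in the 18 without it, a log2 difference of 0.31 (SE 0.07, edgeR quasi-likelihood test, adjusted p = 0.0378). The direction was the same in 3 of the 4 pairs of groups that share genotype at Dp16 and treatment. The fourth, tofacitinib-treated 5xFAD-Dp16 against tofacitinib-treated Dp16 mice, stood at 8.3 ± 1.19 and 8.4 ± 0.961 CPM. The call was lost without the low-count filter (adjusted p = 0.0667), with a replicate block (adjusted p = 0.148) and in 15 of 34 fits that left out 1 library, where the adjusted p ran from 0.0212 to 0.107. The other 6 members were not called, with Lin28b at a log2 difference of -0.25 (adjusted p = 0.423). Of the 19 other tested genes of the vitamin K list, 12 lay above 0 for 5xFAD and 0 were called.

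Sex was unevenly spread between carriers and non-carriers, and the fit held a term for it. Females against males gave 11 called genes (0.0624%), 5 of them higher in females, and no member. Apart from agouti, the log2 differences of the members lay between -0.22 and 0.26, with adjusted p of at least 0.974. Selenov averaged 1.99 ± 1.39 CPM in females and 1.24 ± 0.861 CPM in males, a raw difference that includes the uneven share of carriers.

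Both tests of an interaction with the duplication share libraries with the differences that chose the members and are read as descriptions. Tofacitinib by duplication gave 0 called genes (0%), with 410 (2.33%) at an unadjusted p under 0.05 and 0 calls by DESeq2. The 4 members at an unadjusted p under 0.05 were Lin28b, Ggcx, Slc5a5 and agouti, each with an adjusted p of 1. The log2 interactions were 1.47 for Lin28b, 0.53 for Ggcx and -0.30 for Slc5a5, and that of agouti (-2.68) rests on sham non-carriers with no count and depends on the prior count. 5xFAD by duplication called 1 gene (0.00567%) and no member, with the members apart from agouti between -0.71 for Selenov and 0.36 for Gm49980.

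**Figure D4:**
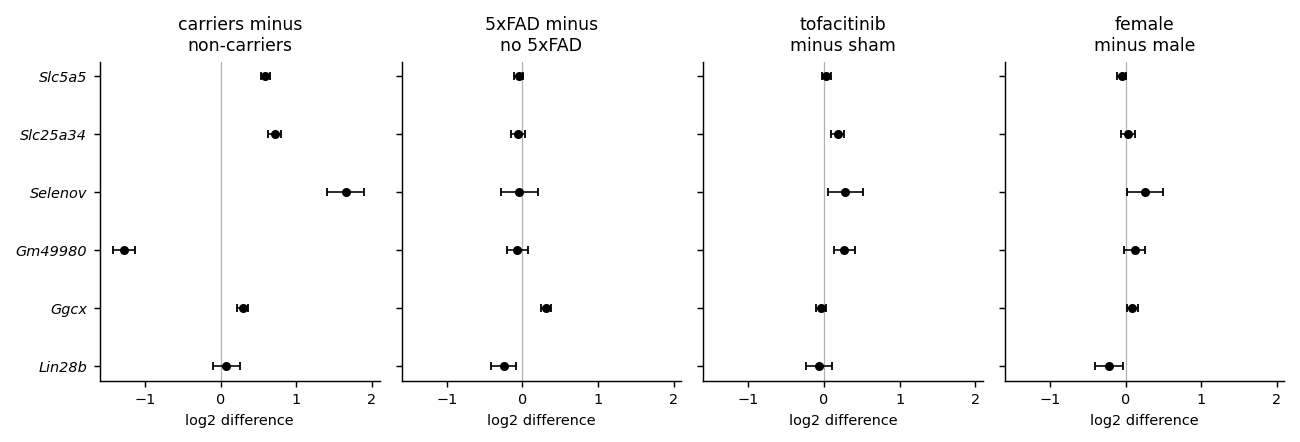
Fitted log2 difference with its SE (horizontal) for the 6 genes other than agouti in 4 contrasts of all 34 libraries. The carrier contrast, which chose the genes, runs from -1.28 for Gm49980 to 1.65 for Selenov, while in the other contrasts all values lie between -0.25 and 0.31.

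The genes most like each member were taken from variation within groups. After the 8 group means were removed, the gene most like each member over the 34 libraries was 4930525G20Rik for agouti (Pearson r = 0.62), Optn for Slc5a5 (0.65), Parvg for Slc25a34 (0.74), Diablo for Gm49980 (0.65), 0610010F05Rik for Selenov (0.76), Tmem181b-ps for Lin28b (0.60) and Ddx17 for Ggcx (0.69). None of these is another member, and none lies in the segment. For agouti, 16 of the 19 non-carriers held no count and each carrier held 15 to 37, which limits its r. For Ggcx the next was Tardbp, like Ddx17 a gene of an RNA-binding protein (0.67). For Slc25a34 the next was Gap43, a growth cone protein (0.72). These values were picked as the highest over all tested genes that averaged 1 CPM or more. They come from libraries that differed in depth and in the amount of neighbouring tissue, and describe likeness only.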

How the data were processed

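Cortex RNA of 34 mice was measured as poly-A libraries with paired reads of 150 bases, per the labels' protocols. Per the submitters' processing notes, bcl2fastq, FastQC 0.11.5, HISAT2 2.1.0, SAMtools 1.5, HTSeq 0.6.1 and build GRCm38 were used. The authors deposited whole counts per gene and RPKM values, which matched the counts scaled by gene length and column total. The strand setting of the counting is not given in the sources used here. The series text gives 6 tofacitinib-treated 5xFAD and 4 sham-treated 5xFAD-Dp16 mice, of which 5 and 3 were analysed here. Replicates of a group differed beyond sampling noise in every pair.

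Tests on the counts used edgeR 4.0.16 under R 4.3.3 (low counts removed by filterByExpr, TMM, quasi-likelihood fit of 8 groups with a sex term, two-sided, Benjamini-Hochberg within a contrast, called at 0.05), which was tested on simulated data first. The SE is the log2 difference over the square root of F. P-values measure the spread between mice. Alternatives were DESeq2 1.42.0, other scalings and filters, no sex term, a replicate block and each library left out. Positions come from GENCODE M21 (55144 of 55385 genes placed), promoters from RefSeq.

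The members, lists and tests were chosen with earlier results of these data known. Genes named are the 7 members, up to 5 genes most like each by Pearson r of log2 CPM (prior count 2, mean of at least 1 CPM), overlapping and nearest tested genes, called genes within 500 kb, up to 3 more genes per list, and genes with at least 5 counts in every carrier and at most 2 in every non-carrier or the reverse, of which there were 0. Luzp2, Cort and Cbs, and the called neighbours, were named after their values were seen.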

Additional observations from a re-analysis of the deposited data

Results flagged for a closer look

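In 3 of 40 sets of 4 or 5 libraries of a member, the highest or lowest library stood far from the others (chance marks about 1 in 20). Agouti stood at 0.214 CPM in WT tofacitinib replicate 1, with 4 counts against 0 in the other WT tofacitinib libraries. With the others at 0, any count in that library would have been marked, so the chance given does not apply to it. Selenov was highest in the same library, at 1.71 CPM. Slc5a5 was lowest at 29.0 CPM in 5xFAD-Dp16 tofacitinib replicate 1, against 36.0 to 36.7 CPM in the others of that group. The Lin28b difference between Dp16 and WT mice had opposite signs at the 2 treatments, with a log2 difference of 1.49 under tofacitinib and -0.77 under sham, 2.27 apart. That difference for mice without 5xFAD was not tested on its own, and the interaction averaged over 5xFAD had a log2 value of 1.47 with an adjusted p of 1.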

How the results depend on the processing

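Of the 9 alternatives, the scale of log2(CPM + 1) was used for the carrier difference only, and the fit without a sex term gave no sex difference. The drug, 5xFAD, sex and both interactions gave 35 member values in 5 contrasts. Of these values, 14 changed sign under at least 1 alternative that covered them or 1 of 34 leave-outs. None of these passed the threshold after the change, and none exceeded 0.34 in size in the fit reported. The value after the change could be larger, as for agouti and 5xFAD, which went from -0.16 to 0.534 without WT tofacitinib replicate 1. The Ggcx log2 difference for 5xFAD was 0.31 without the low-count filter and 0.27 with a replicate block, past the threshold in neither, and between 0.28 and 0.33 with 1 library left out. DESeq2 gave Ggcx no adjusted p. Members called for 5xFAD were therefore 0 with DESeq2, without the filter and with the replicate block, and 0 to 1 in the leave-outs. All genes called for 5xFAD were 74 in the fit reported, 587 with DESeq2, 1358 without the filter, 17 with the replicate block and 15 to 293 in the leave-outs. For carriers the count was 378, against 672 without the filter, 206 with the block, 669 without WT sham 2 and 5xFAD tofacitinib 2, and 263 to 541 in the leave-outs. Members among these were 6, against 5 without the filter and 5 to 6 in the leave-outs, Ggcx being the one lost, and 5 of 6 with the 1 CPM filter, which removed agouti. For sex it was 11, against 27 with DESeq2, 84 without the filter and 5 with the block. Low replicate numbers were mostly female and high ones mostly male, so the block overlaps with the sex term and limits that last count. Without the filter, tofacitinib gave 51, its interaction with the duplication 55 and the 5xFAD interaction 47. Same-numbered libraries did not deviate together (median r 0.014, 9 of 98 pairs over 0.1), so the numbers were not taken as pairing. On the scale of log2(CPM + 1), which shrinks low genes, the carrier difference was 1.26 for agouti and 1.00 for Selenov. Depth limits agouti, Selenov and Lin28b, with at most 37, 78 and 33 counts per library.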
